A study of Mus musculus with 9 samples.

Results

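Platelet and megakaryocyte genes were followed in LSK cells, bone marrow cells sorted for Sca1 and cKit and against lineage markers, a fraction that contains the blood stem cells and multipotent progenitors. The set was chosen by gene symbol and holds 10 of the 14940 genes in the deposited table: Selp, Mmrn1, Itga2b, Pf4, Vwf, Cd9, Plek, Gp9, Itgb3 and Clec1b. The cells came from C57BL/6 mice with 3 animals per group. One group was naive (day 0), another had been immunized for experimental autoimmune encephalomyelitis (EAE) 3 days earlier, and the last had been immunized and given SR59230A, an antagonist of the β3-adrenergic receptor, for those 3 days. EAE is a mouse model of multiple sclerosis, induced here with a myelin oligodendrocyte glycoprotein peptide in complete Freund's adjuvant. No group received adjuvant alone or a named vehicle, so peptide, adjuvant and the act of dosing cannot be told apart from the effects measured.

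Megakaryocytes are the marrow cells that shed platelets, and part of the stem cell pool already carries their transcripts. Platelets hold adhesion proteins in their alpha-granules, among them P-selectin, von Willebrand factor, platelet factor 4 and multimerin 1, and present the fibrinogen receptor and the glycoprotein Ib-IX-V complex on their surface. P-selectin and von Willebrand factor are also made by endothelial cells, where they are stored together.

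The promoters of the 3 genes whose change passed the test in immunized mice are shown because they place the opposite changes beside the DNA upstream of each gene. The windows run from 250 bases before to 50 bases after the start of the gene, 5′ to 3′ on the gene's own strand, in RefSeq's GRCm38.p6. The capitals mark 6-letter matches on either strand, none of which overlap. The letters searched were AGATAA or also TGATAA for GATA factors, CCGGAA or else the letters CAGGAA for ETS factors and TGTGGT or else the letters TGCGGT for RUNX factors. They lie at chr1:164115014-164115313 (plus strand) for Selp, chr6:60944067-60944366 (plus strand) for Mmrn1 and chr11:102469834-102470133 (minus strand) for Itga2b.
Selp: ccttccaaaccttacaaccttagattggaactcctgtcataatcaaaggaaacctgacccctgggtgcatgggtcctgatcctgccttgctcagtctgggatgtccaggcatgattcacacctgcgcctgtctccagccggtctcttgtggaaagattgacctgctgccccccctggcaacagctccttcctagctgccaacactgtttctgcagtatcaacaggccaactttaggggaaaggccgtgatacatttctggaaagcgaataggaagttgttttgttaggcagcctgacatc
Mmrn1: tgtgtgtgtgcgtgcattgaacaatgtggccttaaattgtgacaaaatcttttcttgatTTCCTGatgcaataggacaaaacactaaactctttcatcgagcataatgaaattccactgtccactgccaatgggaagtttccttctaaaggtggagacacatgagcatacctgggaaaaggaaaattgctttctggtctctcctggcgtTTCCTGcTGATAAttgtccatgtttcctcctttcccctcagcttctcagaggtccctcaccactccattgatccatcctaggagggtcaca
Itga2b: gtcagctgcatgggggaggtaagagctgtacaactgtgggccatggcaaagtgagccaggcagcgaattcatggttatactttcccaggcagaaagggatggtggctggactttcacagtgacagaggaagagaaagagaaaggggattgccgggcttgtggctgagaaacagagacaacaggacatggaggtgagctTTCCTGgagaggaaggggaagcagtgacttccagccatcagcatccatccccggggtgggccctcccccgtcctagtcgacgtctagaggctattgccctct
The Selp window held none of these letters. The Mmrn1 window held a GATA match that starts 34 bases before the start site and ETS matches at 41 and 191 bases before it, and the Itga2b window held 1 ETS match, 52 bases before the start site. The promoter table held 8 of the 10 genes, and a GATA match stood in 3 of these 8 windows, an ETS match in 4 and a RUNX match in 1. Among all 32817 windows of this length the shares were 18.6%, 41.4% and 22.4%. A match describes letters in the window and is not a binding site.

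The values are whole numbers that the authors adjusted before deposit and are not read counts, so the depth of sequencing is not known and counting intervals are not given. They summed to between 8641735 and 10387955 per library. Levels below are these values after scaling between libraries, and differences are log2 fold changes of (value + 1) ± SE by limma-trend, with p-values adjusted by Benjamini-Hochberg over 13018 tested genes and a threshold of 0.05. Variation in 2 directions within the groups is missing from the deposited values, so an SD given here may understate the spread between mice. The naive libraries lay between 33.1 and 42.3 on the first principal component and the other 6 between -24.7 and -11.5. On the second component naive replicates 2 and 3 lay far apart, at 28.4 and -24.2. On the third the second EAE library was at 36.0 and the other 8 were between -22.5, in treated replicate 1, and 5.59. The genes of the sort gate were present in all libraries but differed between groups. Kit ranged from 6547 to 7235 in naive and from 4846 to 5286 in EAE mice, and Ly6a, which encodes Sca-1, from 1412 to 1741 and from 1881 to 2379. In EAE mice Kit fell by 0.43 ± 0.09 (adjusted p = 0.0115) and Ly6a rose by 0.46 ± 0.12 (adjusted p = 0.0226). Ly6e, listed with them, rose by 0.44 ± 0.11 (adjusted p = 0.02). In treated mice Kit fell by 0.45 ± 0.09 (adjusted p = 0.00961) and Ly6a rose by 0.68 ± 0.12 (adjusted p = 0.00335). The 5 lineage genes in the table summed to 1244 to 1544 in naive, 2151 to 2301 in EAE and 1968 to 2408 in treated libraries. Of these, Itgam (CD11b of myeloid cells) rose by 0.99 ± 0.15 in EAE mice (adjusted p = 0.00189) and Nkg7 (of cytotoxic lymphocytes) by 0.54 ± 0.11 (adjusted p = 0.00801), and the other 3 did not pass.

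**Figure D1:**
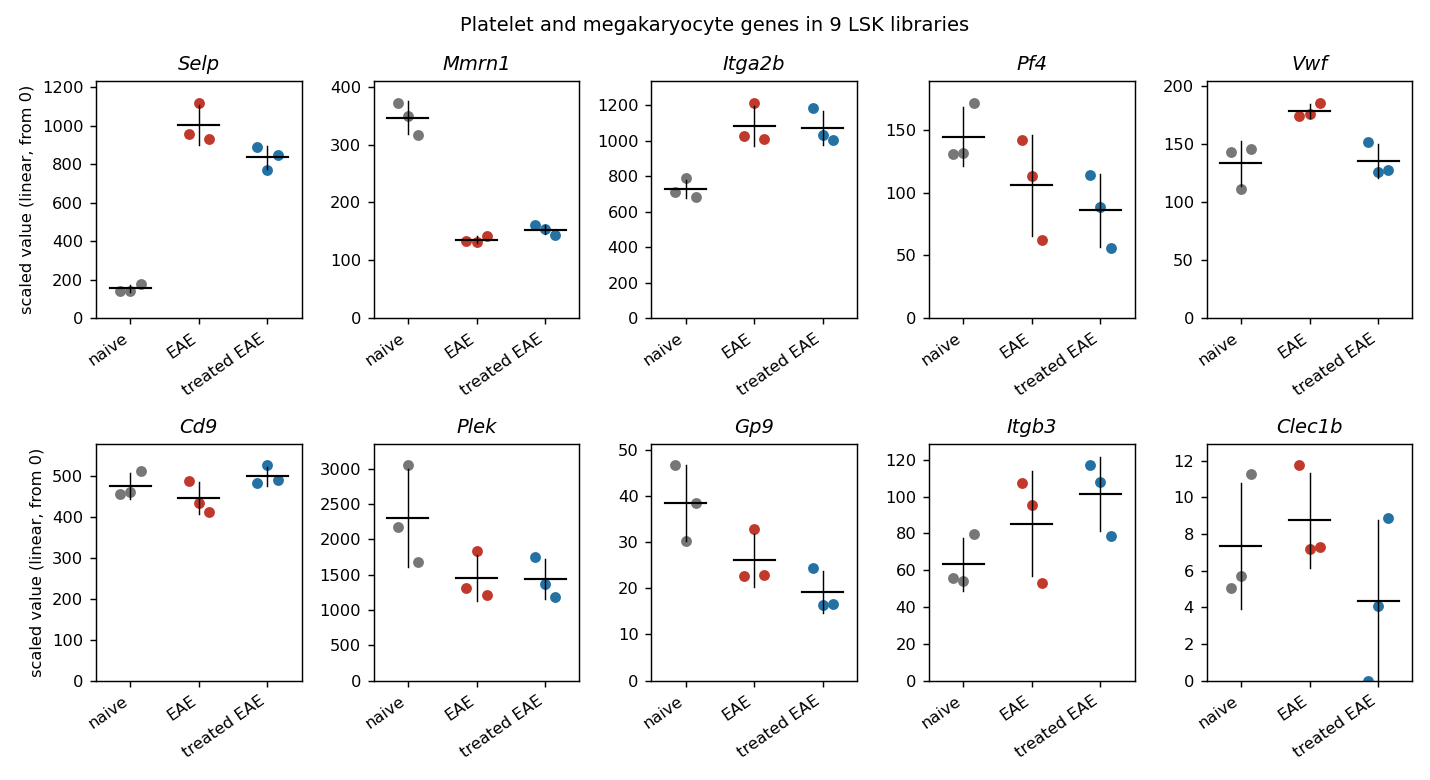
Scaled values (linear axes from 0) of the 10 platelet and megakaryocyte genes in the 9 LSK libraries, by group. Points are single libraries, horizontal lines are means and vertical lines the SD (n = 3). Selp lies between 142 and 177 in naive libraries and between 771 and 1120 in the 6 libraries from immunized mice, while Mmrn1 goes from between 317 and 373 to between 131 and 161.

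Immunization moved the genes of this set in opposite directions. In EAE mice Selp rose 6.52-fold and Itga2b 1.49-fold over naive mice, whereas Mmrn1 fell to 0.390 of its naive mean. The other 6 tested genes did not pass, with 2 above and 4 below naive mice. Clec1b was not tested because it missed the filter of 10 in 3 libraries. Over all tested genes 14.2% passed, 9.13% higher and 5.1% lower, against 3 of the 9 tested members. Upper-quartile scaling moved the split of all calls from 1189 higher and 664 lower to 807 and 910. The median log2 fold change was -0.10 over the 9 members and -0.00 over all tested genes. At an unadjusted p under 0.05 there were 5 of the 9 members and 28.8% of all genes. Groups that did not overlap were found for 4 of the 9 members, 3 higher and 1 lower, and for 39.4% of all genes, 21% higher and 18.4% lower. The members were chosen with earlier results of these data known, so their count is a description.

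Selp encodes P-selectin, the adhesion receptor that platelets and endothelial cells bring to their surface on activation and that binds PSGL-1 on leukocytes. Its naive values were 143, 142 and 177, its EAE values 955, 1120 and 933 and its treated values 887, 771 and 846. Every library from an immunized mouse lay far above every naive library. The log2 fold change in EAE against naive mice was 2.71 ± 0.11 (adjusted p = 1.14e-07), which ranked 3rd by p among all tested genes. In treated against naive mice it was 2.44 ± 0.11 (adjusted p = 3.04e-07), and it ranked 4th. Both calls held in all 17 alternatives, with log2 fold changes from 2.63 to 2.96 and from 2.33 to 2.86. Without EAE replicate 2, which held the highest value, it was 2.63.

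Mmrn1 encodes multimerin 1, an alpha-granule protein that binds coagulation factor V. Its naive values were 373, 351 and 317, its EAE values 133, 131 and 143 and its treated values 161, 154 and 144. The naive libraries all lay above the 6 others, and the immunized groups were tight. The log2 fold change fell by 1.36 ± 0.13 in EAE mice (adjusted p = 8.6e-05) and by 1.18 ± 0.13 in treated mice (adjusted p = 0.000267). The EAE call held in all 17 alternatives (adjusted p at most 0.0393), and without EAE replicate 2 it fell by 1.33. The call in treated mice was lost in 1 alternative, with a term for the level of chemosensory receptor genes (adjusted p = 0.28). Such genes, known for smell and taste, made up 0.153% to 0.183% of the values in naive, 0.108% to 0.122% in EAE and 0.0817% to 0.101% in treated libraries. This level separates the groups, so its part in the results cannot be told apart from theirs.

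The ratio of Selp to Mmrn1 within a library shows how unequal the changes were. It was 0.383, 0.405 and 0.556 in naive, 7.20, 8.55 and 6.53 in EAE and 5.52, 5.01 and 5.86 in treated mice. Its mean was thus 16.6 times the naive mean in EAE and 12.2 times in treated mice, and no group overlapped another. The ratio compares these libraries and not the abundance of the transcripts, since values of different genes are not scaled by length.

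Itga2b and Itgb3 encode the subunits of the platelet fibrinogen receptor, αIIb (CD41) and β3. Itga2b, also a surface marker of megakaryocyte-primed progenitors, was at 711, 787 and 685 in naive, 1023, 1214 and 1010 in EAE and 1183, 1029 and 1001 in treated libraries. All 6 libraries from immunized mice lay above the naive libraries. The log2 fold change was 0.57 ± 0.11 in EAE (adjusted p = 0.00657) and 0.56 ± 0.11 in treated mice (adjusted p = 0.00778). Neither call held with limma without a trend (adjusted p = 0.0617 and 0.0615) or with the chemosensory term (0.596 and 0.921). That in treated mice was also lost without scaling (adjusted p = 0.0641). Without EAE replicate 2 the EAE value was 0.49 (adjusted p = 0.0149).

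Its partner gene Itgb3 did not pass in either comparison. It was at 55.8, 54.0 and 79.8 in naive, 108, 95.2 and 53.2 in EAE and 117, 108 and 78.9 in treated libraries. The groups overlapped, since EAE replicate 3 lay below every naive library. The log2 fold changes were 0.39 ± 0.29 (adjusted p = 0.41) and 0.68 ± 0.29 (adjusted p = 0.137). The EAE value was 0.19 without EAE replicate 1 and 0.70 without EAE replicate 3. The treated value passed with 6 libraries alone (adjusted p = 0.0311). The 95% interval in EAE mice, -0.25 to 1.03, contains the change of Itga2b.

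The remaining granule proteins did not pass. Vwf encodes von Willebrand factor, which tethers platelets to the vessel wall and marks platelet-biased stem cells in the mouse. It was at 143, 111 and 146 in naive, 174, 176 and 185 in EAE and 152, 125 and 128 in treated libraries. The EAE libraries lay above all the others, and the naive and treated libraries overlapped. Its log2 fold change was 0.43 ± 0.16 in EAE (adjusted p = 0.103) and 0.02 ± 0.16 in treated against naive mice (adjusted p = 0.937). The EAE value passed without the missing directions as model terms (adjusted p = 0.0286) and with the 6 libraries of these groups alone (0.0486).

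Pf4, which encodes the alpha-granule chemokine platelet factor 4, was at 131, 132 and 172 in naive, 142, 114 and 62.5 in EAE and 114, 88.7 and 55.5 in treated libraries. It varied widely among immunized mice. The EAE and naive libraries overlapped, and the treated libraries all lay below the naive libraries. Its log2 fold change was -0.52 ± 0.32 in EAE (adjusted p = 0.32) and -0.79 ± 0.32 in treated mice (adjusted p = 0.118). Without EAE replicate 3 the former was -0.17, and without treated replicate 3 the latter was -0.51. With the 6 libraries of naive and treated mice alone the latter passed (adjusted p = 0.0357).

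Among the surface receptors, Gp9 encodes glycoprotein IX, a subunit of the von Willebrand factor receptor. It was at 46.6, 30.3 and 38.5 in naive, 22.6, 32.7 and 22.9 in EAE and 24.4, 16.3 and 16.7 in treated libraries. The treated libraries all lay below the naive libraries, and 1 EAE library overlapped them. The log2 fold change was -0.54 ± 0.33 in EAE (adjusted p = 0.299) and -0.98 ± 0.33 in treated mice (adjusted p = 0.0648). The latter passed in 4 of 16 alternatives: with naive replicate 2 left out (adjusted p = 0.0312), with treated replicate 1 left out (0.0306), with no terms for the missing directions (0.0148) and with 6 libraries alone (0.0155).

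Cd9, a tetraspanin of platelets and many other blood cells, was at 455, 461 and 512 in naive, 489, 434 and 413 in EAE and 482, 526 and 490 in treated libraries. All groups overlapped. Its log2 fold changes against naive mice were -0.10 ± 0.11 (95% interval -0.34 to 0.14) and 0.07 ± 0.11 (-0.17 to 0.31), and neither passed (adjusted p = 0.592 and 0.699). These were among the tightest intervals in the set. Clec1b, which encodes the podoplanin receptor CLEC-2, was near the bottom of the measured range, at 5.07, 5.69 and 11.3 in naive, 11.7, 7.16 and 7.30 in EAE and 0, 4.08 and 8.88 in treated libraries. The groups overlapped, and no test was made.

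Plek encodes pleckstrin, a substrate of protein kinase C in platelets that monocytes and neutrophils also hold. It was at 2181, 3051 and 1683 in naive, 1319, 1831 and 1217 in EAE and 1745, 1376 and 1185 in treated libraries. Each immunized group overlapped the naive group through naive replicate 3. The log2 fold change was -0.65 ± 0.22 in EAE (adjusted p = 0.073) and -0.66 ± 0.22 in treated mice (adjusted p = 0.0644). Without naive replicate 2, which held the highest value, they were -0.42 (adjusted p = 0.199) and -0.43 (adjusted p = 0.172). Without naive replicate 3 both passed, at -0.85 (adjusted p = 0.0157) and -0.86 (adjusted p = 0.0142). The EAE value also passed without EAE replicate 2 (adjusted p = 0.0453) and with upper-quartile scaling (0.0474), and the treated value in 4 further alternatives.

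**Figure D2:**
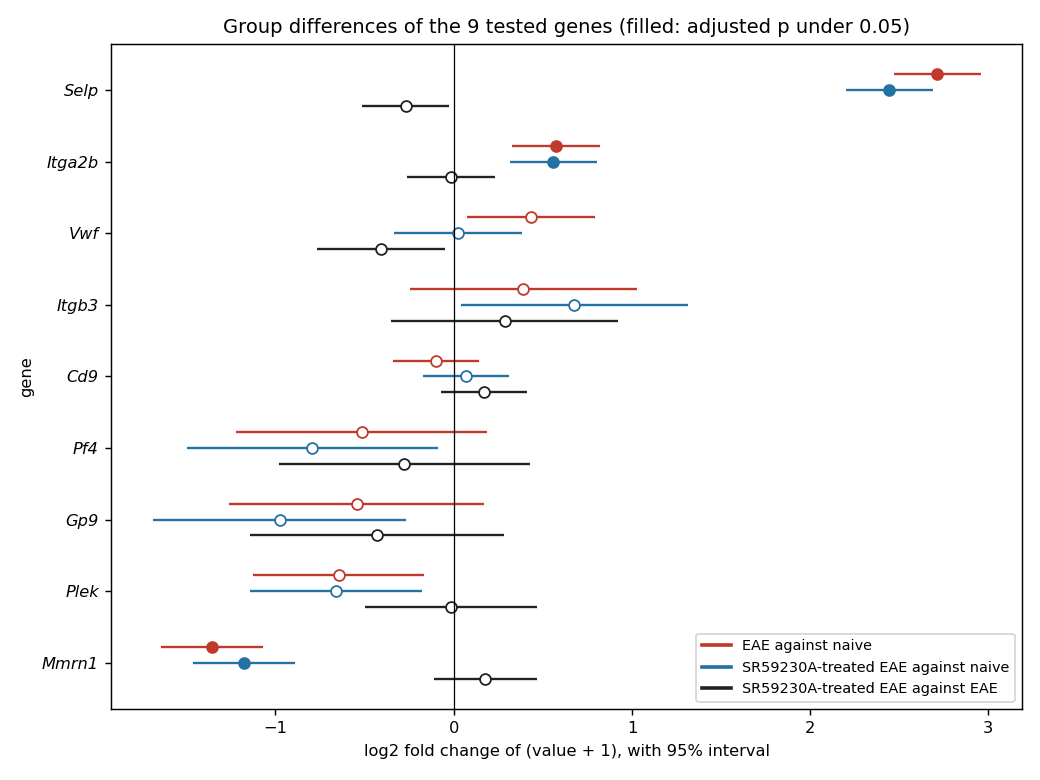
Log2 fold changes with 95% intervals of the 9 tested genes in the 3 comparisons. Filled points have adjusted p under 0.05. Selp and Itga2b lie to the right and Mmrn1 to the left for both immunized groups against naive mice, and no point is filled for treated against untreated EAE mice.

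The treated against naive comparison gave calls of the same sign for the same 3 members, of 9 tested. It shares the naive libraries with the first comparison, so the pair is not independent. Over all tested genes 14.8% passed, 10.2% higher and 4.61% lower. At an unadjusted p under 0.05 there were 7 of the 9 members and 31.1% of all genes. Groups that did not overlap were found for 2 members higher and 3 lower, and for 48.8% of all genes, 26.4% higher and 22.4% lower. Without scaling and with upper-quartile scaling that split turned from 1332 higher and 600 lower to 489 and 584 and to 835 and 954, and the median of all genes moved by -0.12 without scaling.

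Between treated and untreated EAE mice none of the 9 tested members passed by limma-trend. Over all genes 1 of 13018 passed (0.00768%), and at an unadjusted p under 0.05 there were 2 members, Selp and Vwf, and 3.87% of all genes. Selp had a log2 fold change of -0.27 ± 0.11 (95% interval -0.51 to -0.03, unadjusted p = 0.0332, adjusted p = 0.998), with all 3 treated libraries below all 3 EAE libraries. Vwf had -0.41 ± 0.16 (95% interval -0.77 to -0.05, unadjusted p = 0.0288, adjusted p = 0.998), again without overlap. Mmrn1 had 0.18 ± 0.13 (95% interval -0.11 to 0.46), and its groups did not overlap either. Groups that did not overlap were thus found for 1 member higher and 2 lower, and for 16.2% of all genes, 8.46% higher and 7.71% lower.

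For the other members the intervals bound the difference between treated and untreated EAE mice. The 95% interval was -0.26 to 0.23 for Itga2b and -0.07 to 0.41 for Cd9. It was wider for Plek, at -0.49 to 0.47, and for Itgb3, at -0.35 to 0.92. Pf4 had an interval of -0.98 to 0.43 and Gp9 one of -1.14 to 0.28, so a change of Gp9 to below its EAE level by more than 2-fold lies inside its interval. A p above the threshold does not show that the groups were alike.

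**Figure D3:**
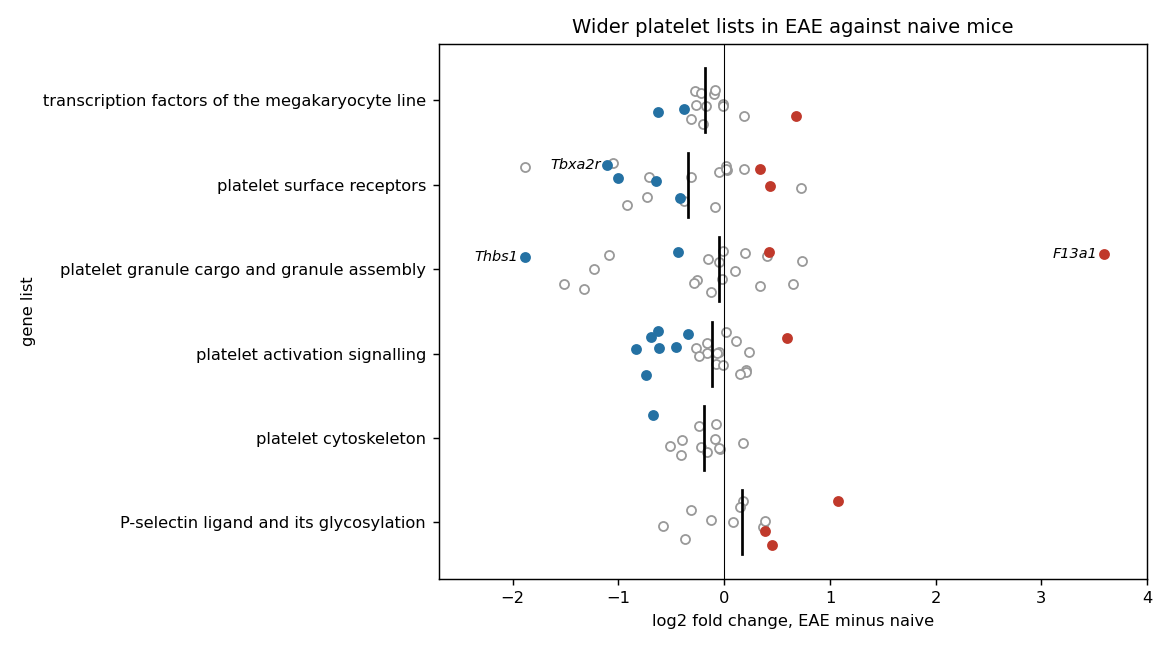
Log2 fold changes in EAE against naive mice for 6 wider lists of platelet and megakaryocyte genes. Each point is a gene, red points rose and blue points fell with adjusted p under 0.05, open points did not pass, and black bars are list medians. F13a1 rose by 3.59 and Thbs1 fell by 1.89, both genes of granule proteins.

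Wider lists of platelet genes also held calls in both directions. They hold 116 genes outside the set, of which 105 were in the table and 101 were tested. In EAE against naive mice 9 rose and 16 fell, which is 8.91% and 15.8% of the 101 beside 9.13% and 5.1% of all tested genes. The median of all 101 was -0.12 on the log2 scale, against -0.00 over all tested genes. In treated against naive mice 10 rose and 12 fell, 9.9% and 11.9% beside 10.2% and 4.61% of all genes, and in treated against EAE mice none of the 101 passed by limma-trend. Of the 25 calls in EAE mice 19 were kept without scaling, 11 by limma without a trend and 3, among them F13a1, with the chemosensory term. Of the 22 calls in treated mice 14, 12 and 0 were kept. The lost calls given below for single genes are not a full list. Without a trend the EAE calls of Itga6, Pear1, Tgfb1, Nbeal2, Tbxas1, Lat and Skap2 were also lost (adjusted p from 0.052 to 0.076).

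Of 14 tested transcription factor genes of the megakaryocyte line, 1 rose and 2 fell in EAE mice (7.14% and 14.3%, beside the 9.13% and 5.1% of all genes), with a median of -0.19. Gata1, required for megakaryocyte and red cell maturation, was at 55.8, 60.7 and 58.2 in naive, 92.1, 103 and 85.5 in EAE and 99.7, 93.8 and 92.2 in treated libraries. It rose by 0.68 ± 0.18 (adjusted p = 0.0288), with no overlap, but did not pass without scaling (adjusted p = 0.0901), without naive replicate 1 (0.0536) or with the chemosensory term (0.526). Gfi1b, a repressor needed for platelet formation, fell by 0.62 ± 0.16 (adjusted p = 0.0209, but 0.0552 without scaling and 0.0938 without a trend), and the GATA1 cofactor gene Zfpm1 by 0.38 ± 0.09 (adjusted p = 0.0177, but 0.0837 without a trend). With the chemosensory term neither passed (0.363 and 0.368). Fli1 (-0.27 ± 0.09), Nfe2 (-0.27 ± 0.09), Gata2 (-0.17 ± 0.12) and Runx1 (0.19 ± 0.10) did not pass.

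Of 20 tested surface receptor genes, 2 rose and 4 fell in EAE mice (10% and 20%), with a median of -0.35. Tbxa2r, the thromboxane receptor gene, was at 201, 165 and 203 in naive, 91.2, 84.9 and 86.5 in EAE and 96.6, 117 and 120 in treated libraries. Each naive library lay above all libraries from immunized mice. Tbxa2r fell by 1.11 ± 0.17 (adjusted p = 0.00163), the ATP-gated channel gene P2rx1 by 0.64 ± 0.15 and the platelet contact receptor gene Pear1 by 0.42 ± 0.08 in EAE mice. Itga6, an integrin subunit gene of stem cells and platelets, rose by 0.44 ± 0.10. Its call was lost without a trend (adjusted p = 0.0711) and with the chemosensory term (0.231), and it did not pass in treated mice (0.0941). Fcer1g, the signalling chain of the collagen receptor and of Fc receptors on myeloid cells, rose by 0.34 ± 0.10, a call lost without naive replicate 1 (adjusted p = 0.0688), without scaling (0.164), with upper-quartile scaling (0.0887) and without a trend (0.0965). Gp1ba, which encodes the ligand-binding chain of the von Willebrand factor receptor, had a log2 fold change of 0.03 ± 0.28, and that gene's value turned negative in 6 alternatives. Gp1bb, its other chain, was at 21.3, 16.1 and 23.5 in naive and 9.93, 12.3 and 6.25 in EAE libraries and did not pass (-1.05 ± 0.40, adjusted p = 0.102).

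Of 21 tested granule genes, 2 rose and 2 fell in EAE mice (9.52% each), with a median of -0.05. The share that rose is near that of all genes. F13a1, which encodes a coagulation factor XIII subunit and is also a monocyte gene, was at 146, 153 and 137 in naive and 1223, 2355 and 1820 in EAE libraries. It rose by 3.59 ± 0.19 in EAE (adjusted p = 5e-07) and by 3.64 ± 0.19 in treated mice, a call that was lost there with the chemosensory term (adjusted p = 0.0985). Thbs1, which encodes thrombospondin 1, an alpha-granule protein, was at 62.9, 76.8 and 46.0 in naive, 14.5, 15.3 and 17.7 in EAE and 28.5, 28.5 and 26.6 in treated libraries. It fell by 1.89 ± 0.29 in EAE (adjusted p = 0.00179) and by 1.10 ± 0.29 in treated mice (adjusted p = 0.0265; 0.061 without naive replicate 1).

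Tgfb1 rose by 0.42 ± 0.10, and Nbeal2, needed for alpha-granule formation, fell by 0.44 ± 0.10. Ppbp, a chemokine precursor gene typical of mature platelets, was at 13.2, 16.1 and 29.1 in naive and 17.2, 9.21 and 2.08 in EAE libraries and did not pass (adjusted p = 0.237). The granule-secretion gene Rab27b did not pass either (-0.26 ± 0.20).

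Of 22 tested activation signalling genes, 1 rose and 7 fell in EAE mice (4.55% and 31.8%), with a median of -0.12. The adaptor gene Dok2 fell by 0.83 ± 0.11, the protein kinase C gene Prkcq by 0.74 ± 0.15, the thromboxane synthase gene Tbxas1 by 0.70 ± 0.14, Rasa3, a GTPase-activating protein that restrains Rap1, by 0.62 ± 0.11 and the adaptor gene Lat by 0.62 ± 0.14. Skap2, an adaptor of myeloid integrin signalling, rose by 0.59 ± 0.11. Of 12 tested cytoskeleton genes, with a median of -0.19, 1 fell (8.33%, near the 5.1% of all genes), the gelsolin gene Gsn, by 0.67 ± 0.14 (adjusted p = 0.00987). Tubb1, the β-tubulin gene of mature megakaryocytes and platelets, was at most 19.7 in any library and did not pass (-0.51 ± 0.70).

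Of 12 tested genes for the P-selectin ligand and its glycosylation, 3 rose in EAE mice and 5 in treated mice (25% and 41.7%, beside 9.13% and 10.2% of all genes), with medians of 0.16 and 0.28. None of the 12 fell with an adjusted p under 0.05 in either comparison, where 5.1% and 4.61% of all genes fell. Selplg, which encodes PSGL-1, was at 972, 1008 and 1030 in naive and 1123, 1073 and 997 in EAE libraries, which overlapped, and did not pass (0.08 ± 0.10, adjusted p = 0.602). B4galt1, a galactosyltransferase gene, rose by 0.46 ± 0.11 in EAE mice, and the sialyltransferase gene St3gal4 by 0.38 ± 0.09. The call for B4galt1 was lost without a trend (adjusted p = 0.0871) and with the chemosensory term (0.0896). That for St3gal4 was lost without scaling (adjusted p = 0.0886), without a trend (0.0645) and with the chemosensory term (0.662). Both genes also passed in treated mice, but not without scaling (adjusted p = 0.071 and 0.225). In treated mice the tyrosine sulfotransferase gene Tpst1 (0.64 ± 0.17) and C1galt1c1, a chaperone gene of core O-glycan synthesis (0.59 ± 0.12), rose as well. Neither passed in EAE mice (adjusted p = 0.185 and 0.0563), and both calls in treated mice were lost without scaling (0.0788 and 0.053). That for Tpst1 was lost in 7 of 17 alternatives, among them without naive replicate 3 (0.0534), treated replicate 1 (0.0609) or treated replicate 3 (0.0569).

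**Figure D4:**
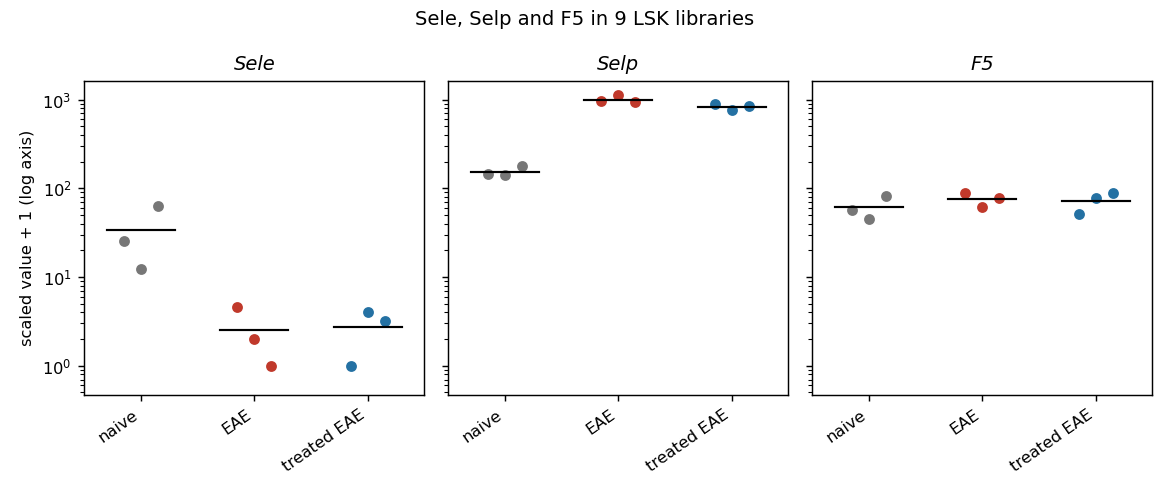
Scaled value + 1 (log axis) of Sele, Selp and F5, genes close together on mouse chromosome 1, in the 9 libraries. Points are single libraries and lines are means. Selp is higher in all 6 libraries from immunized mice than in any naive library, Sele is lower, and F5 overlaps.

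The neighbours of Selp on chromosome 1 did not follow it as a group. Neighbours were taken as the 3 protein-coding genes on either side in RefSeq's order, a rule added after the values of Selp were known. Sele, which encodes the E-selectin of activated endothelium, was at 24.3, 11.4 and 62.0 in naive, 3.61, 1.02 and 0 in EAE and 0, 3.06 and 2.22 in treated libraries. Its log2 fold change in EAE mice was -3.71 ± 0.87 (adjusted p = 0.0161), with no overlap. That call was lost with a pseudocount of 0.1 (adjusted p = 0.054) and by limma without a trend (0.0712), and the value became 0.07 with the chemosensory term. On the other side F5, which encodes coagulation factor V, did not pass (0.34 ± 0.29), and neither did Slc19a2, Ccdc181 or Mettl18. Of the neighbours of Mmrn1, 4 were tested and none passed by limma-trend, and of the 4 tested neighbours of Itga2b the progranulin gene Grn rose, by 0.42 ± 0.09.

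Because Selp and Vwf are shared with endothelium, the endothelial markers were read beside them. Of 15 tested endothelial markers none rose in EAE mice and 7 fell, where 9.13% of all tested genes rose and 5.1% fell. The median of these markers was -0.72 on the log2 scale. Their summed level was 9589 to 11642 in naive, 8169 to 9373 in EAE and 9418 to 9929 in treated libraries. Erg, Pecam1 and Eng, with naive means of 3674, 2417 and 2280, made up most of that sum. Cdh5, the VE-cadherin gene, was at 35.5, 18.9 and 123 in naive and 17.2, 3.07 and 2.08 in EAE libraries. Among the naive libraries Cdh5 was highest in replicate 3, as Selp was. Emcn, Eng, Erg, Tie1 and Tek were highest in naive replicate 1, and the other endothelial markers in naive replicate 3. None of the 15 was at 0 in all libraries of a group, and the part of endothelial RNA in the values of Selp and Vwf was not tested.

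Markers of other progenitors also moved with these genes. For comparison with the counts below, 9.13% of all tested genes rose and 5.1% fell in EAE against naive mice. In treated against naive mice 10.2% rose and 4.61% fell. The summed level of 9 granulocyte-monocyte progenitor markers was 2555 to 3167 in naive, 14377 to 21444 in EAE and 14518 to 15596 in treated libraries, and 8 of the 9 rose in EAE mice. The summed level of 9 stem cell markers was 7585 to 8784, 3428 to 3641 and 3330 to 3946, and 6 of the 9 fell. That of 12 early erythroid markers was 9702 to 10573 in naive, 4678 to 5065 in EAE and 5935 to 6432 in treated libraries. Most of this sum is Car2, with means of 8312, 3122 and 3547, so it says little about the other erythroid markers. Of the 11 tested, 4 fell and 1 rose in EAE mice, and 1 fell and 2 rose in treated mice. Their log2 fold changes against naive mice were above 0 for 3 in EAE mice, with a median of -0.54. In treated mice they were above 0 for 9, with a median of 0.49, unlike the sum. Car1, a carbonic anhydrase gene among them, was the 1 gene that passed between treated and untreated EAE mice, and it was higher in treated mice. In a bulk sample, fewer cells of a type and less RNA per cell cannot be told apart, and the part of these markers in the changes of Selp, Mmrn1 and Itga2b was not tested.

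The genes whose profile was nearest to that of Selp were sought among 9666 tested genes with a mean of at least 50. The nearest 5 were Gatm, Ms4a3, Tm6sf1, Anxa3 and Emilin2, with Pearson's r from 0.996 to 0.998 over the 9 libraries. Ms4a3, a marker of granulocyte-monocyte progenitors, went from a mean of 18.6 in naive to 762 in EAE and 603 in treated mice. Emilin2, which encodes an extracellular matrix glycoprotein, went from 96.3 to 503 and 413. The genes nearest to Mmrn1 were Pygm, Car2, Peg13, Crispld1 and Gria2, with r from 0.990 to 0.994. Car2, a carbonic anhydrase gene of red cell progenitors and stem cells, went from a mean of 8312 to 3122 and 3547. The libraries fall into naive and immunized clusters, so these values mostly rank genes by that single contrast and carry no p.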

How the data were processed

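RNA of sorted LSK cells from 9 mice was profiled, with 3 libraries in each of 3 groups taken from the labels' treatment field. Per the labels, the RNA kit was RNeasy micro and each library has an IonCode barcode. The authors deposited 1 table of whole numbers, which are treated as a score: components 7 and 8 of ln(value + 1), taken over the 4577 genes averaging 500 or more, hold 6.7e-05% and 5.94e-05% of the variance against 2.44% for component 6, which read counts of separate libraries cannot do. How the score was made is not given in the sources used here, nor are aligner, build and annotation. The submitters' processing notes name DESeq2 with no role. All 10 members and 14132 of 14940 symbols matched GENCODE M21.

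Scaling used median-of-ratios factors (0.9 to 1.11). The 13018 genes that reach a deposited value of 10 in 3 libraries were tested. Log2(value + 1) was fitted with limma-trend (limma 3.58.1, R 4.3.3), 2-sided, with group means and terms for the 2 missing directions, which leaves 4 residual degrees of freedom. This scale understates changes of low genes. The fit was checked on simulated data. Alternatives were other scalings, filters, pseudocounts (0.1 and 10), no trend, no missing directions, 6 libraries alone, a chemosensory term and leaving out each library. Named in the text are all members, in each wider list the up to 5 genes with adjusted p under 0.05 and the largest change, 14 fixed platelet genes of which Gp5 and Gp6 are not analysed here, and the 5 genes most like Selp and Mmrn1. Car1, Itgam, Nkg7, the endothelial markers named singly and the genes next to members were named after their values were seen. Results for some genes of these lists are counted but not reported singly here. The members, lists and settings were chosen with earlier results of these data known. Replicate numbers follow accession order, and whether mice shared a litter or day is not given in the sources used here.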

Additional observations from a re-analysis of the deposited data

How the results depend on the processing

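Selp (EAE and treated against naive mice) and Mmrn1 (EAE) passed in every alternative run, and Itga2b and, in treated mice, Mmrn1 lost calls as given above. In treated against naive mice 3 members passed, but 5 without the missing directions as terms, 7 with 6 libraries alone and 1 with the chemosensory term. The genes called in EAE against naive mice (1853) numbered 1059 without scaling, 3485 without the missing directions, 778 without a trend and 111 with the chemosensory term. In treated against naive mice (1932) they numbered 1073, 3920, 864 and 13 in the same order and 4442 with 6 libraries alone. In treated against EAE mice the single call was lost without a trend and with the chemosensory term (0 each). Leaving out 1 library gave 1239 to 2624 genes in EAE against naive and 1234 to 2427 in treated against naive mice, with the fewest in both without naive replicate 1.

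Among single genes, log2 fold changes turned sign in the following cases, among others. In EAE against naive mice Gp1ba became -0.0032 without scaling, -0.046 with upper-quartile scaling and -0.47 with the chemosensory term, and ranged from -0.11 to 0.26 without single libraries. The chemosensory term also turned Cd9 (0.068), Selplg (-0.030), Tubb1 (1.97) and Sele (0.066) there, and Tbxa2r in treated against naive mice (0.072). In treated against naive mice Vwf became -0.092 without scaling and -0.068 with upper-quartile scaling, and Cd9 -0.047 and -0.023. Without single libraries Vwf ranged from -0.10 to 0.095 there. In treated against EAE mice Itga2b then ranged from -0.087 to 0.070, Plek from -0.17 to 0.17, Pf4 from -0.62 to 0.0019 and Itgb3 from -0.022 to 0.48. Of these, only the changes of Tbxa2r and Sele had passed the test. Some further marker genes that had passed also turned sign in an alternative. In EAE against naive mice Ly6a, called higher, went down to -0.053 and Cdh5, called lower, up to 0.18. In treated against naive mice Ly6a went down to -0.18. Emcn, Cldn5 and Sele, called lower there, went up to 0.067, 0.60 and 2.76. The cause was not tested for any of them. Depth is unknown, so what it limits cannot be stated, and 3 mice per group limit the precision. No paired analysis was possible because the replicate numbers follow accession order only.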
